A study of Mus musculus with 2 samples.

Results

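The Hox genes are 38 listed homeobox genes in 4 clusters, taken from 21938 protein-coding genes whose promoters were scored in the same way. They comprise 10 genes of HoxA on chromosome 6, 10 of HoxB on chromosome 11, 9 of HoxC on chromosome 15 and 9 of HoxD on chromosome 2. Every member was chosen by name and not by its measured value, though earlier results of these data were known. All 38 were found in the GENCODE annotation of the mm10 genome. A gene was called open in a library when a deposited peak lay within 1 kb of its own annotated 5′ end, and each cluster was followed from its first to its last listed gene with 20 kb on either side.

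The data are DNase-seq, in which nuclei are cut with the enzyme DNase I and the cuts mark accessible chromatin. The tissue was the gastrocnemius, a calf muscle of the hindlimb, from male mice of the F1 hybrid strain B6CASTF1/J aged 25 days. There were 2 libraries, called replicate 1 and replicate 2, from tissue pieces numbered as separate males but filed under the same donor record. Both belong to 1 untreated group, so there was no condition to compare and the spread between replicates rests on 2 libraries.

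Hox genes encode transcription factors that give cells their position along the body axis and the limb. Within a cluster the genes lie in order of paralogue number, with low numbers active in anterior body parts and high numbers in posterior parts and in the distal limb. Polycomb complexes keep unused Hox genes silent, Trithorax complexes maintain active ones, and the DNA-binding protein CTCF marks boundaries between active and silent stretches of a cluster. Whole muscle mixes fibres with connective tissue, vessel and blood cells, so a small share of accessible cells and a low accessibility in all cells cannot be told apart.

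Replicate 1 held 97499 peaks and replicate 2 held 61664. The deposited peak signal moves in equal steps that correspond to 169 M and 117 M tags per library when the step is read as 1 tag scaled to library size, a reading taken from the values. All 8 muscle fibre marker genes were open in both libraries, with median signals of 2.64 and 2.78. None of 3 leukocyte and none of 2 keratinocyte markers had a promoter peak in either. All 3 markers of fibro-adipogenic progenitors, the connective tissue precursors of muscle, were open in both, as were 2 of 3 endothelial markers. Neuronal markers were open for 2 of 3 genes in replicate 1 and 1 of 3 in replicate 2, and satellite cell markers for 2 and 1 of 2 genes. Of 2 hindlimb markers, Tbx4 had 0.733 in replicate 1 and 0.855 in replicate 2, and Pitx1 had no promoter peak in either. The forelimb marker Tbx5 had none in either library.

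The accessible element with the highest mean signal in the 4 clusters was not at a promoter of any listed gene. It covered chr15:102987501-102987700 in mm10, an intron of the long Hoxc5 gene model 3006 bp upstream of the Hoxc8 5′ end, with a signal of 5.03 in replicate 1 and 6.61 in replicate 2. In replicate 1 the promoter elements of Hoxc10, Hoxa7 and Hoxa10 were higher, and its lead in the mean over Hoxc10, 5.82 ± 1.11 against 5.33 ± 0.805 (SD, n = 2), was smaller than its spread. It is shown here, since no other element of the clusters had a higher mean signal, as the RefSeq reference reads it on the plus strand, the strand on which the HoxC genes are transcribed. Capitals mark bases inside a deposited footprint in both libraries, a footprint being a short stretch protected from cutting inside accessible DNA.
Element upstream of Hoxc8: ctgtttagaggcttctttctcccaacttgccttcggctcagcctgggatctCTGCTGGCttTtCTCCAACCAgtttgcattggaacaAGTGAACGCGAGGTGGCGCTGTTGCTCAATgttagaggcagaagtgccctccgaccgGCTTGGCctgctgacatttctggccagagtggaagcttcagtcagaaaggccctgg
Footprints of both libraries covered 55 of its 200 bases.

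A search on both strands for a CTCF core, CCA followed by any 2 letters and AGNNGGC, found 40 matches in the 4 windows, of which 4 lay in a peak of both libraries and 3 also in a footprint of both. These 3 were at the Hoxa7 promoter, at the Hoxa10 promoter and in the element within the Hoxd3 and Hoxd4 models, and all 3 read in the direction of the genes. HoxB held 23 of the 40 matches, none in a peak of both libraries. The core occurred in 5.62% of the Hox peaks of replicate 1 and 3.48% of those of replicate 2, against 8.42% and 8.51% of all peaks.

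The shorter right part of that core, AGNNGGC, was searched after the footprinted bases had been seen. It lay whole inside a footprint of both libraries at 9 places, and the 5 regions with the highest mean signal in the clusters each held such a place. Those at Hoxa7, at Hoxa10 and within Hoxd3 and Hoxd4 held it as part of the longer core already found. In replicates 1 and 2 the short core occurred in 53.9% and 55.7% of Hox peaks, against 51.6% and 54.2% of all peaks. The sequences below are shown because they sit under 4 of those 5 regions and under 2 other named regions outside the promoter windows used. Each is read 5′ to 3′ with the 7-letter core in capitals.
Upstream of Hoxc8: caagtgaacgcgAGGTGGCgctgttgctca
Hoxa7 promoter: gaaaattccaggAGATGGCagtgtggctcc
Hoxa10 promoter: gcagccgccacgAGATGGCgcactcccgat
Within Hoxd3 and Hoxd4: gctttgtccaggAGGAGGCgctgtaggaca
Downstream of Hoxa13: cttgtcaacacgAGGTGGCgcccttgatct
Between Hoxb9 and Hoxb8: acagtggccgctAGATGGCatccttgctcc
The one downstream of Hoxa13 reads against the direction of its cluster and the other 5 read with it. Footprints holding the short core were not more frequent in the clusters than elsewhere: 15 of 203 Hox footprints in replicate 1, or 7.39%, against 7.29% of all footprints, and 15 of 306 in replicate 2, or 4.90%, against 7.19%. A match of letters does not show which factor was bound.

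Of the 38 Hox genes, 20 were open in replicate 1 and 24 in replicate 2, against 61.8% and 59.8% of all protein-coding genes. The members' shares were 52.6% (Wilson 95% interval 37.3 to 67.5%) and 63.2% (47.3 to 76.6%), so both intervals held the value of all genes. Open in both libraries were 18 members, against 58.5% of all genes, and closed in both were 12, against 36.9%. The open Hox promoters were weaker than most: their median signal was 1.83 in replicate 1 and 2.24 in replicate 2, and the median of all open promoters was 3.57 and 3.41. With 3 or more peaks in the window were 4 members in replicate 1 and 8 in replicate 2, against 9.43% and 7.46% of all genes; among the 8 were Hoxa9 and Hoxc9. At least 1 base at q below 0.05 was listed for 21 and 25 members, against 62.9% and 60.8%. Over the 16 distinct promoter peaks found in both libraries, the 2 replicates ordered the members alike, with Spearman's rho 0.971. This describes libraries that share their tissue and genome. It leaves out the 2 members open in replicate 1 alone and the 6 open in replicate 2 alone.

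**Figure D1:**
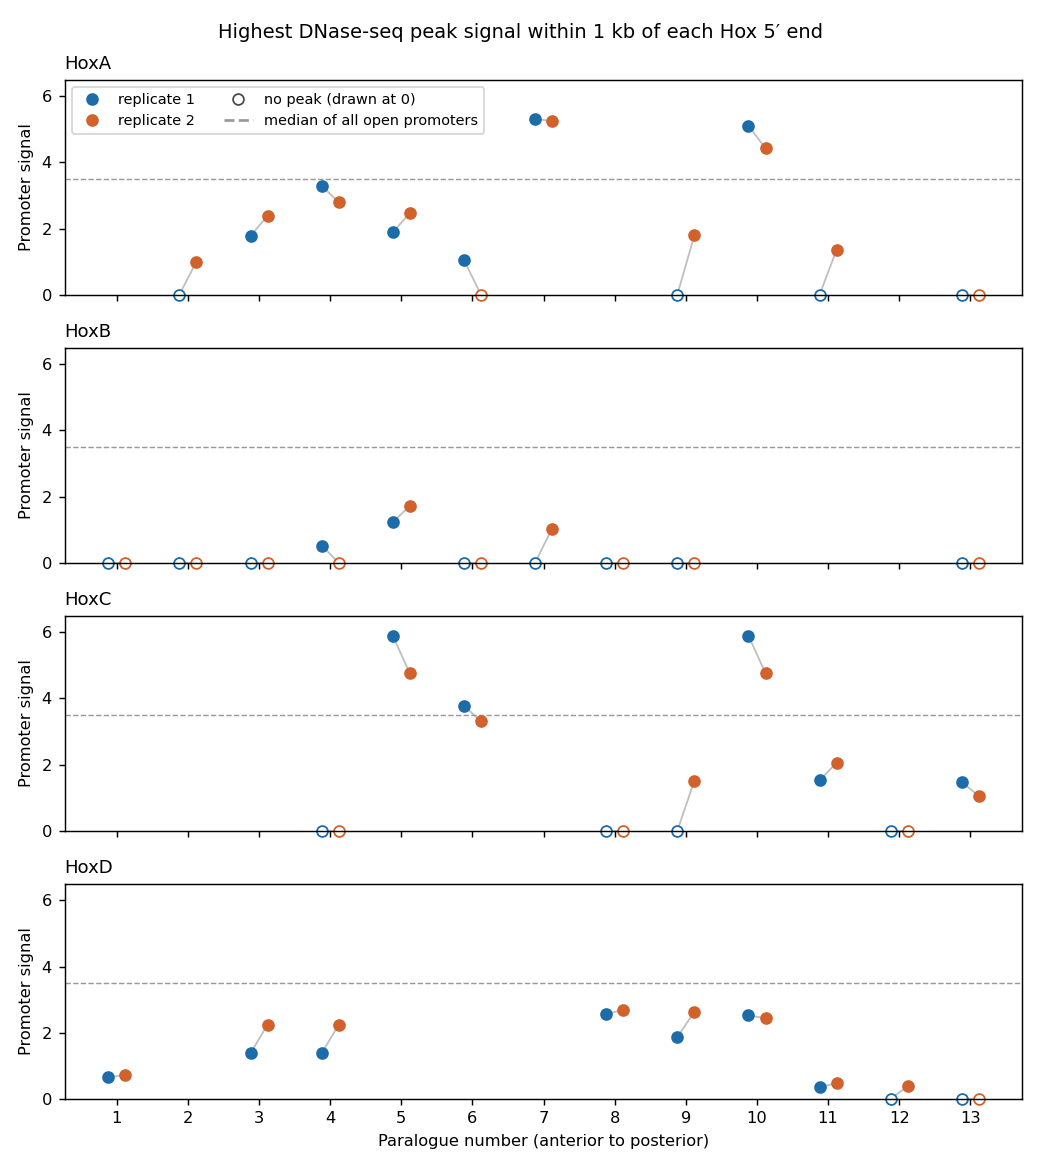
Highest peak signal (deposited units) within 1 kb of the 5′ end of each Hox gene, by paralogue number, 1 panel per cluster, with replicate 1 and replicate 2 as joined points and open circles where no peak was called. The dashed line is the mean over both libraries of the median of all open promoters. Hoxc10, Hoxa7 and Hoxa10 stand above it, as do Hoxc5 through the peak shared with Hoxc10 and Hoxc6 in replicate 1. In each library 8 of 10 HoxB genes are at 0.

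Hoxc10, Hoxa7 and Hoxa10 carried the strongest promoters. Hoxc10, a posterior gene whose product is a marker of hindlimb position, had signals of 5.90 and 4.76, the replicate 1 value first here and below, and so a mean of 5.33 ± 0.805 (SD, n = 2). Hoxa7, a trunk-level gene, had 5.31 and 5.25 (5.28 ± 0.0400). Hoxa10, which patterns the upper hindlimb, had 5.11 and 4.43 (4.77 ± 0.484). These values differed among the 3 genes by no more than the spread of Hoxc10 between the libraries.

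The Hoxc5 gene model starts 647 bp from the Hoxc10 5′ end, so the same peak is scored for both. With the RefSeq 5′ end, which lies 46565 bp away, Hoxc5 had 1.15 and 1.61. Hoxd4 and Hoxd3 start 2 bp apart in the annotation and share a peak of 1.38 and 2.24. At its RefSeq start Hoxd4 had no peak in either library. Hoxd10 had 2.53 and 2.44 (2.48 ± 0.0639) at its own 5′ end, but none and 0.419 at its RefSeq start 7651 bp away. Hoxa7 kept 2.65 and 2.38 at its RefSeq start. The level given to these 4 genes thus depends on which start is used.

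A middle group of promoters lay below the median of all open promoters in both or in 1 library. Hoxc6, a gene of the thoracic level, had 3.79 and 3.31, and Hoxa4, an anterior gene, 3.29 and 2.79. Hoxd8 had 2.56 and 2.69, Hoxd9 1.87 and 2.63, Hoxa5 1.88 and 2.48, and Hoxa3 1.78 and 2.38. The last 3 were higher in replicate 2, whereas Hoxc6 and Hoxa4 were higher in replicate 1. Members open in both with lower mean signals were Hoxd3 and Hoxd4 through their shared peak, Hoxc11, Hoxb5, Hoxc13, Hoxd1 and Hoxd11, whose signals ran from 0.355 for Hoxd11 in replicate 1 to 2.24 for Hoxd3 and Hoxd4 in replicate 2.

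A peak in 1 library alone was found for 8 of 38 members, against 4.62% of all protein-coding genes. In replicate 2 alone these were 6 genes, against 1.27%: Hoxa9 with 1.79, Hoxc9 with 1.51, Hoxa11 with 1.36, Hoxb7 with 1.03, Hoxa2 with 1.00 and Hoxd12 with 0.385. Hoxa9 and Hoxc9 had 4 peaks each within their windows in replicate 2 and no peak in replicate 1. For Hoxa9 this rests on the start and window used: with any annotated start it had 2.80 and 2.76, and within 2500 bp of its own 5′ end 2.92 and 1.92. Hoxa9 and Hoxa11, posterior genes, lie in the stretch of HoxA where the libraries differed most. In replicate 1 alone were Hoxa6 with 1.05 and Hoxb4 with 0.521, against 3.35% of all genes. Hoxd12 and Hoxb4 rested on 45 and 88 tags, below the 114 tags of the median peak of either library.

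No promoter peak was found in either library for Hoxa13, Hoxb1, Hoxb2, Hoxb3, Hoxb6, Hoxb8, Hoxb9, Hoxb13, Hoxc4, Hoxc8, Hoxc12 and Hoxd13. HoxB supplied 7 of the 12. The paralogue 13 genes, which pattern the most distal limb and the hindgut and urogenital end of the body, were closed in 3 of 4 cases, the exception being Hoxc13 with 1.48 and 1.04. Hoxc8, a thoracic-level gene, was closed, and the element of highest mean signal lay upstream of it, and Hoxb8 was closed at its own 5′ end but had 2.12 and 1.97 at the RefSeq 5′ end 2504 bp away.

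By cluster, HoxD had the largest share of open members, 7 of 9 in replicate 1 and 8 of 9 in replicate 2, and HoxB the smallest, 2 of 10 in each. HoxA had 6 and 8 of 10 and HoxC 5 and 6 of 9. The Wilson intervals of HoxD were 45.3 to 93.7% in replicate 1 and 56.5 to 98.0% in replicate 2, and that of HoxB was 5.67 to 51.0% in each. These intervals take genes as independent, which neighbours in a cluster need not be, and Hoxd3 and Hoxd4 are both scored from 1 shared peak. They therefore do not test 1 cluster against another. From RefSeq starts HoxD had 5 and 7 of 9 open and HoxA 6 and 8 of 10, so HoxA then had the larger share, and HoxB had 3 and 2 of 10. By paralogue number, all 3 paralogue 10 genes and all 3 paralogue 5 genes were open in both libraries, the latter including Hoxc5 through the shared peak. Paralogues 9 to 13 were open in 7 of 16 genes in replicate 1 and 11 of 16 in replicate 2, and paralogues 1 to 8 in 13 of 22 in each. The posterior share minus the anterior share was thus -15.3 percentage points in replicate 1 and 9.66 in replicate 2, so its direction differed between the libraries.

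The clusters held many more peaks per length than the genome. Over the 4 windows there were 1.38 peaks per 10 kb in replicate 1 and 1.78 in replicate 2, while the genome as a whole had 0.358 and 0.226. Replicate 2 had fewer peaks than replicate 1 genome-wide, with a ratio of 0.633, yet more in the clusters, 115 against 89. HoxA made most of this difference: 24 peaks in replicate 1 and 49 in replicate 2. HoxC had 19 and 31, HoxB 12 and 11, and HoxD 34 and 24.

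The excess of replicate 2 in HoxA sat on its posterior side, from Hoxa9 outward, with 10 peaks covering 1629 bp in replicate 1 and 32 covering 9356 bp in replicate 2. The anterior side had 14 peaks over 2679 bp and 17 over 3695 bp, and there the bin at the Hoxa6 5′ end was higher in replicate 1, 53.2% and 0%. HoxC went the same way, with 1940 and 6620 bp covered on its posterior side and 1708 and 2115 bp on its anterior side. HoxD had 5220 and 4163 bp posterior and 2643 and 1742 bp anterior, ratios of 0.798 and 0.659 that lie near the 0.706 of the genome. Counted by bases at q below 0.05, the HoxD ratios were lower, 0.596 posterior and 0.465 anterior against 0.710 in the genome. With an equal number of strongest peaks from each library HoxD had 17 and 24 peaks.

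**Figure D2:**
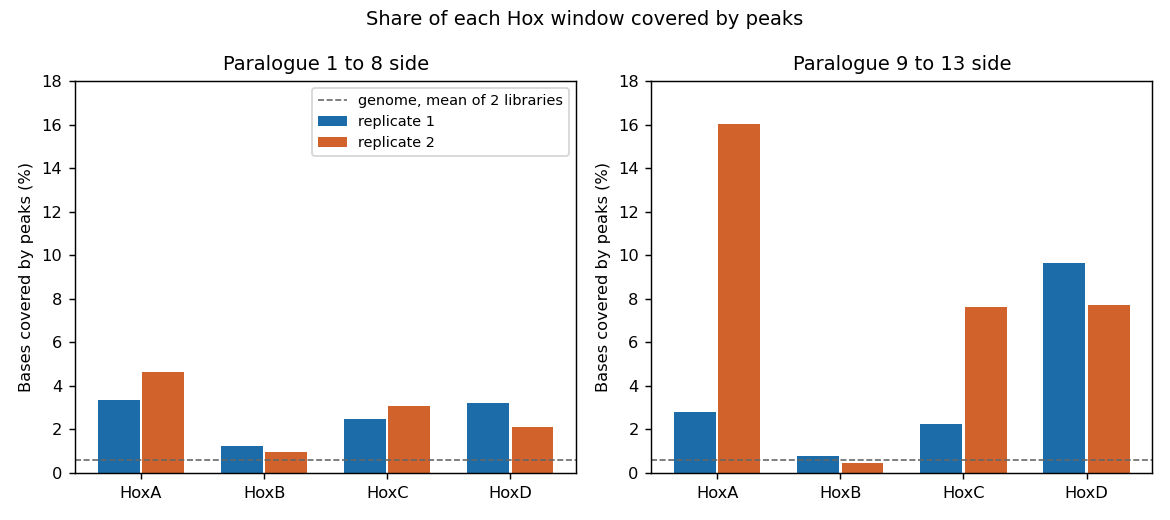
Percent of bases covered by peaks on the low-number side (left) and the high-number side (right) of each cluster, in replicate 1 and replicate 2, with the genome mean of both libraries dashed. The posterior side of HoxA has 2.79% in replicate 1 and 16.0% in replicate 2, and HoxB is the lowest cluster on both sides in both libraries.

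The densest 10 kb of any cluster was chr6:52224917-52234916, around Hoxa9, where 88.7% of bases in replicate 2 were listed at q below 0.05. The same stretch had 1341 bp listed in replicate 1, with 6 peaks against 13. In HoxD the densest 10 kb of replicate 1 spanned Hoxd8 and Hoxd9, with 48.5% of bases listed and 12 peaks, and there replicate 2 had 2291 bp and 8 peaks. Of the 49 HoxA peaks in replicate 2, 23 (46.9%) lay below that library's median signal, a share near the 49.7% of all its peaks, and in replicate 1 it was 4 of 24 (16.7%). With a signal of at least 1 the counts were 25 in replicate 2 and 18 in replicate 1. Wide peaks, of 500 bp or more, numbered 15 in the 4 windows of replicate 2 and 2 in replicate 1; in the genome they numbered 3621 of 61664 peaks and 1941 of 97499, so replicate 2 had more of them there too. Depth and the share of neuronal and satellite cell markers with a peak also differed between the libraries, and their part in the HoxA difference was not tested.

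**Figure D3:**
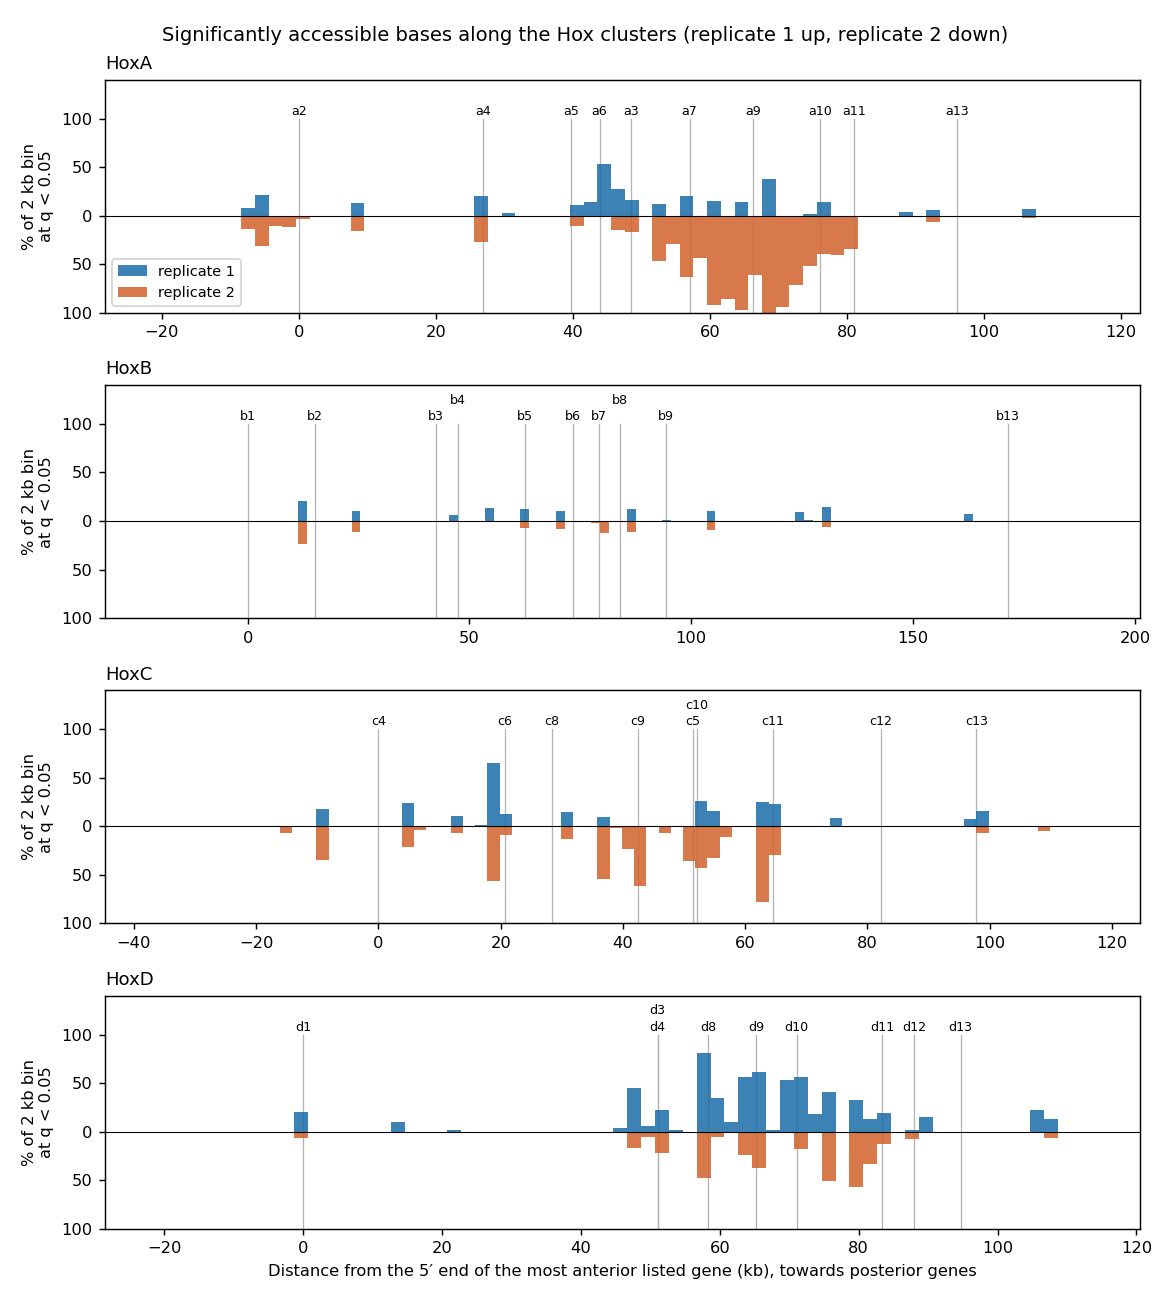
Percent of each 2 kb bin with bases at q below 0.05 along the clusters, replicate 1 upward and replicate 2 downward, against distance in kb from the 5′ end of the most anterior listed gene; grey lines mark the 5′ ends of members. Replicate 2 forms a broad block between Hoxa7 and Hoxa11, replicate 1 is the higher library across Hoxd8 to Hoxd10, and HoxB shows narrow isolated bins.

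Peaks of the 2 libraries merged into 137 regions, of which 53 were shared, 29 were in replicate 1 alone and 55 in replicate 2 alone. In HoxA 31 regions were in replicate 2 alone and 6 in replicate 1 alone, and in HoxD 6 and 16. Among the shared regions 36 of 53 had the higher signal in replicate 2. The same share was not counted over the genome, where the median signal of all peaks was also higher in replicate 2, 0.974 against 0.674. In the windows 67.4% of replicate 1 peaks and 50.4% of replicate 2 peaks met a peak of the other library, whereas genome-wide the shares were 51.0% and 79.7%.

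Outside the 1 kb around each member's own 5′ end lay 90 of the 137 regions. Of those named below, the Hoxa9 exon element lies within 1 kb of another annotated Hoxa9 start. The elements at chr6:52217461-52217700 and chr11:96278881-96279060 lie within 1 kb of the RefSeq starts of Hoxa7 and Hoxb8. After the element upstream of Hoxc8, the strongest was chr2:74715841-74716040, within the Hoxd3 and Hoxd4 models and an exon of the antisense transcript Hoxd3os1, with 3.95 and 3.37. This element also lies within 1 kb of an annotated Hoxd3os1 start. Next came an element in a Hoxa10 intron at chr6:52233501-52234340 with 2.92 and 2.96, and the coding exon element of Hoxa9 at chr6:52225821-52226340 with 2.80 and 2.76. Both lie in the dense replicate 2 stretch of HoxA and had nearly the same signal in both libraries. Others were chr6:52217461-52217700 in Hoxa7 with 2.65 and 2.38, chr15:102963721-102964000 between Hoxc11 and Hoxc10 with 2.25 and 2.44, and chr6:52211621-52211900 in a Hoxa3 intron with 2.39 and 2.28. HoxB gave 1 of the 10 strongest elements outside these windows, chr11:96278881-96279060, between Hoxb9 and Hoxb8, with 2.12 and 1.97. The remaining 2 were chr6:52257067-52257191 past Hoxa13, with 1.66 and 2.52, and chr15:102981641-102982220 in a coding exon of Hoxc9, with 1.19 and 2.33.

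Long stretches held no peak in either library. Counting gaps between 2 regions, and not those that run to the end of a window, the longest were 33.9 kb in HoxD between the Hoxd3 and Hoxd4 element and Hoxd1, 31.4 kb in HoxB between Hoxb13 and Hoxb9, 23.3 kb in HoxB around the Hoxb3 5′ end and 21.2 kb in HoxC around Hoxc12. The Hoxa13 and Hoxd13 5′ ends lay in peak-free stretches of 13.4 and 15.1 kb.

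Footprint counts followed the peak counts. The windows held 203 footprints in replicate 1 and 306 in replicate 2, with 50 and 140 in HoxA, 23 and 20 in HoxB, 55 and 96 in HoxC, and 75 and 50 in HoxD. Per 10 kb this was 3.15 and 4.74, against 0.894 and 0.629 in the genome. Per kb covered by peaks the windows had 10.1 and 9.55, close to the genome's 11.1 and 10.7. In the windows 38.4% of replicate 1 footprints and 26.5% of replicate 2 footprints met a footprint of the other library, against 36.0% and 52.2% genome-wide.

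Peaks in the clusters were rich in G and C, with a median of 64% in replicate 1 and 60.7% in replicate 2, against 54.7% and 57.3% of all peaks, and they held a median of 11 and 9 CpG dinucleotides in 150 bp against 3 and 5. The myogenic E-box CAGCTG, the binding letters of MyoD-like factors, occurred in 7.87% and 4.35% of Hox peaks and in 18.1% and 15.4% of all peaks, searched on both strands. GGGCGG, bound by SP and KLF factors, occurred in 29.2% and 26.1% against 17.3% and 22.2%. The homeodomain core TAATTA was in 1.12% and 0.870% against 1.31% and 0.809%. These shares move with base composition, which was not matched.

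The clusters also carry microRNA genes, whose products repress Hox messages. The 3 genes of the miR-196 family share the seed AGGUAGU, bases 2 to 8 in capitals, and the 2 genes of the miR-10 family share ACCCUGU.
miR-196b: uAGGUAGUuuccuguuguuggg
miR-196a: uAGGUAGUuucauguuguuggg
miR-10a: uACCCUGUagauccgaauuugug
miR-10b: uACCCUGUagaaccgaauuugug
Mir196b, within the long Hoxa9 gene model, had 2 peaks within 1 kb in replicate 1 with a highest signal of 1.37, and 4 in replicate 2 with 1.92, 2 of which overlapped the gene. Mir196a-2 in HoxC had 0.786 in replicate 2 alone. Mir10a, Mir10b and Mir196a-1 had no peak within 1 kb in either library, and Mir615 in HoxC had 1.15 and 1.61.

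Genes that act with or upon Hox genes were open to differing degrees, beside 61.8% and 59.8% of all protein-coding genes in replicates 1 and 2. All 9 TALE cofactors, the Pbx, Meis and Pknox partners of Hox proteins on DNA, were open in both libraries, Pbx3 among the strongest at 7.58 and 6.67. Of 20 Polycomb genes 19 and 18 were open, Cbx7 having no peak in either library and Jarid2 0.704 in replicate 1 alone. Of 12 Trithorax genes 9 were open in each, led by Kmt2a with 12.6 and 9.70, while Kdm6b, Ash2l and Dpy30 had no peak at the annotated 5′ end used. Of 9 CTCF and cohesin genes 8 were open in each, Stag1 not. Of 12 upstream regulators 5 and 7 were open, Egr2 among them with 2.23 and 2.11, and Cdx1, Cdx2, Rarb, Tbx5 and Pitx1 had no peak at their own 5′ end. Among 38 other homeobox genes 25 and 23 were open, or 65.8% and 60.5%, near the share of all genes. The open ones had medians of 0.692 and 1.01, below those of the open Hox promoters.

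**Figure D4:**
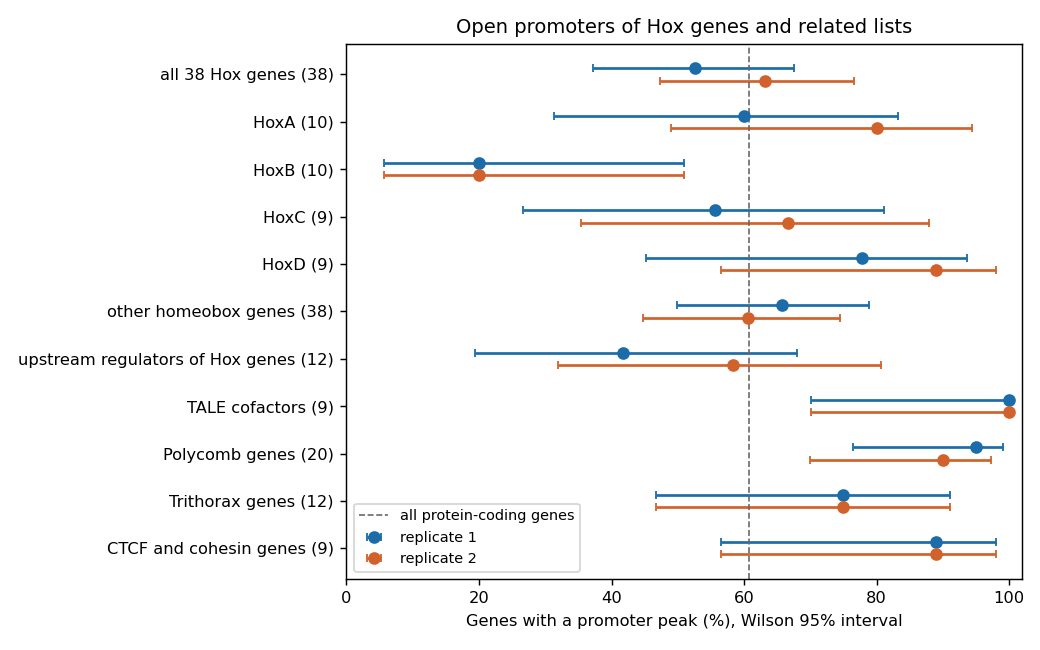
Percent of genes with a promoter peak in replicate 1 and replicate 2 for all Hox genes, each cluster and 6 related gene lists (number of genes in brackets), with Wilson 95% intervals that cover counting error only; the dashed line is the mean of all protein-coding genes. HoxB lies at 20% in both libraries, and the 9 TALE cofactors at 100%.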

How the data were processed

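DNase-seq was read from 2 libraries of 1 group, each with 4 deposited lists on mm10: a longer and a shorter peak list, footprints, and bases at q below 0.05. Per the labels, peaks were derived for each library separately. Aligner, peak caller, their versions and the handling of CAST alleles are not stated in the labels. The deposited signal per peak is the authors' value and is never negative, and the deposited q-value (a p-value adjusted for many tests) marks listed bases. The footprint lists hold a constant 0.01 in their score column, which the authors deposited and which was not used. Each signal was a whole number of steps for 100% of peaks (tolerance 0.1 step).

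From these, peaks overlapping the 1 kb around each gene's GENCODE M21 5′ end were taken, and a promoter's signal is the highest of them. Peaks were counted in a cluster by midpoint, and the side split fell midway between the flanking genes of paralogues 8 and 9. In HoxA, which has no listed paralogue 8, it fell midway between Hoxa7 and Hoxa9. Motifs were searched in the RefSeq GRCm38.p6 sequence on both strands. Python 3.11.15, pandas 2.3.3, SciPy 1.17.1 and pysam 0.24.0 were used, and overlap and motif searches were tested on simulated data. No test between groups was possible. Intervals cover counting error only.

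The members and lists were chosen with earlier results of these data known. Per-library values are given for the 12 members with the highest mean promoter signal, for members open in 1 library and, by name, for those closed in both. The 10 strongest regions outside the promoter windows of members and, of other lists, strong and closed genes are named. Some items are not reported here. Alternatives were other windows, starts, flanks and peak lists, and leaving out each library.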

Additional observations from a re-analysis of the deposited data

How the results depend on the processing

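The number of Hox genes open in both, 18, stayed between 13 (shorter list) and 22 (2500 bp windows) under the alternatives, and was 20 to 24 with 1 library left out. The median promoter signal of 2.03 moved to 2.34 with the shorter list and 2.56 when signals in the window were summed, and was 1.83 to 2.24 with 1 library left out. Peak density, 1.58 per 10 kb, was 1.96 without flanks, 1.29 with 50 kb flanks, 0.907 with the shorter list, 0.977 with the stronger 50% of peaks and 0.915 with a signal of at least 1, this last chosen after seeing the data; it was 1.38 to 1.78 with 1 library left out. The ratio of replicate 2 to replicate 1 peaks in the clusters, 1.29, was 1.80 when each library gave an equal number of its strongest peaks, and stayed above 1 under all 7 alternatives tried, 2 of them chosen after seeing the data. By cluster that setting gave HoxD 17 and 24 peaks in replicates 1 and 2, the opposite order to all peaks, while the shorter list gave HoxB 6 and 1. The posterior minus anterior share, -2.84 percentage points, reversed to 0.641 with paralogues 10 to 13 against 1 to 9, and ran from -15.3 to 9.66 with 1 library left out. Footprint density, 3.95 per 10 kb, was 3.15 to 4.74 with 1 library left out. The cause of these changes was not tested. No paired analysis was possible because there was 1 group. The depths, 169 M and 117 M tags, differ, so an absent weak peak does not show closed chromatin.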
